A study of Mus musculus with 6 samples.

Results

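The lysosomal gene set comprised 34 genes for lysosomal hydrolases, lysosomal membrane proteins and their helpers, cathepsins left out. They were the rows of the count table, out of 23420, whose symbol was on a given list of lysosomal genes. RNA-seq was performed on whole mouse retina with 2 biological replicates of each of 3 groups. Control mice received no treatment. Light-exposed mice were placed under 10000 lux for 1 h and analysed 4 days later. The minocycline group received the same light plus intraperitoneal minocycline, a tetracycline antibiotic, at 45 mg/kg a day for 4 days. The labels give the strain CD1 for all 6 libraries and state no genotype, age or sex, whereas the methods of the study describe young adult albino BALB/cJ mice of both sexes and a brighter light. By those methods minocycline also began on the day before light and was injected more than once a day at first. No library came from light-exposed mice given vehicle, so the drug and its injections cannot be told apart.

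Lysosomes are acidic organelles in which hydrolases break down sugars, glycosaminoglycans, lipids and proteins. A proton pump keeps their interior acidic, membrane proteins protect the limiting membrane, and channels and transporters release the products. In the retina, the pigment epithelium degrades shed photoreceptor outer segments in lysosomes, and phagocytic microglia carry many of them. Inherited loss of several of these enzymes causes storage diseases that damage neurons, the retina included.

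Total counts ranged from 15205930 to 22856922 per library. The headers of the minocycline columns are identical and number neither library, so A and B name them here. Levels are given in CPM, in which counts are divided by a library size adjusted by TMM. Rod markers, the most abundant of the marker lists, summed to 95123 and 74846 CPM in the controls, to 55964 and 39689 CPM after light and to 81465 and 87835 CPM in minocycline A and B. The 15 microglia and macrophage markers, none of which was at 0 in all 6 libraries, summed to 64.5 and 73.8 CPM in controls. They summed to 496 and 1578 CPM in light 1 and light 2, and to 128 and 61.5 CPM in minocycline A and B. The 7 markers of Müller glia summed to 2531 and 1754 CPM in controls, 2904 and 3252 CPM in light 1 and light 2 and 3066 and 2428 CPM in minocycline A and B. Markers of pigment cells summed to 15.8 to 71.8 CPM in the control and light-exposed libraries and to 303 and 1378 CPM in minocycline A and B. Markers of corneal epithelium summed to 188 and 265 CPM in minocycline A and B against 2.11 to 14.8 CPM elsewhere. Markers of the retinal pigment epithelium summed to 98.6 to 320 CPM over the 6 libraries, with Best1 at 3 counts or fewer. Xist, which female cells transcribe, had 77778 counts in control 1 and 25 to 188 in each other library.

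Many promoters of lysosomal genes carry a palindromic E-box, CACGTG, which lies within the motif bound by TFEB and related factors. The word was searched in the RefSeq promoters of build GRCm38.p6, which run from 250 bases before to 50 bases after the transcription start. It reads the same on both strands. Promoters of 30 of the 34 members were found there. The word stood in 10 of the 30, that is 33.3% of them, against 8.09% of all 27025 genes with a promoter. The longer palindrome TCACGTGA, which contains it, stood in 3 members against 1.12% of all genes. The 5 stretches below are shown because Lamp1 held the word 4 times, Mcoln1, Gla and Cln3 held the longer palindrome, and Naglu alone of the 10 passed the test after light. CACGTG is in capitals and each stretch reads 5′ to 3′ on the strand of the gene.
Lamp1, chr8:13159080-13159160, plus strand: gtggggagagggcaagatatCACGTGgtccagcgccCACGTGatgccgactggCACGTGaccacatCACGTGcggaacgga
Mcoln1, chr8:3500462-3500491, plus strand: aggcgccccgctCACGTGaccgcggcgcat
Gla, chrX:134601215-134601244, minus strand: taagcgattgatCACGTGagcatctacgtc
Cln3, chr7:126583340-126583369, minus strand: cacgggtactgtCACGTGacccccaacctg
Naglu, chr11:101070009-101070038, plus strand: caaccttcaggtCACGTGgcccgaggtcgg

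The other members with CACGTG were Arsa, Gaa, Glb1, Lgmn and Sgsh. As a description, the median log2 fold change after light was 0.45 in the 10 members with the word, from -0.40 to 1.98, and 1.02 in the 20 members without it, from -0.24 to 4.39. The members that differed most between light-exposed and control retina, Laptm5, Gusb, Grn, Lipa and Cd63, were among those without it. GAGGAAGT, a purine-rich word of the kind bound by ETS factors such as PU.1, was searched on both strands and stood in 2 of the 30 members, Gla and Gusb, against 3.69% of all genes. A word in a promoter is a match of letters and does not show that a factor binds there.

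The first comparison asked how light exposure changed these genes. In light-exposed retina 7 lysosomal genes rose and 0 fell. The hydrolases Arsb, Naglu, Galns and Fuca1, the saposin precursor Psap and the membrane proteins Lamp2 and Scarb2 were higher by 0.70 to 2.02 on the log2 scale. Each of them passed edgeR's quasi-likelihood test at an adjusted p under 0.05 over 14349 tested genes, with adjusted p of 0.0141 to 0.0473. Passing higher were thus 7 of the 33 members tested, or 21.2%, against 7.52% of all tested genes. Passing lower were 0 members against 3.8% of all genes, and DESeq2 also passed 0, against 5.25%. At an unadjusted p under 0.05, 1 member, Sgsh, was lower, against 12.4% of all genes. With a log2 fold change of at least 2 also required, 1 member was called higher, Arsb, against 2.89% of all genes.

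The members with the largest differences did not pass. At an unadjusted p under 0.05, 21 members were higher, against 16.5% of all genes. Both light-exposed libraries lay above both controls for 22 of the 33 tested members, against 30.6% of all tested genes, and below both for 3 members, Sgsh, Cln3 and Mcoln1, against 30.3%. Of the members at least 2-fold higher on the fitted scale, 9 did not pass, with log2 fold changes of 1.46 to 4.39 and adjusted p of 0.0749 to 0.13 in edgeR. Light 2 exceeded light 1 in each of these 9 by 2.19 to 3.34 times, and in the 7 that passed by 1.31 to 2.24 times. Over the microglia and macrophage markers the median of the same ratio was 3.08. Of the 7 Müller glia markers, 6 had both light-exposed libraries above both controls and 3 passed, with a median log2 fold change of 0.97. The part of either cell type in the levels of the members was not tested. Light 2 exceeded light 1 in 30 of the 34 members and in 50.2% of all tested genes. In bulk RNA, more cells of a type and more RNA per cell cannot be told apart.

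Which members passed depended on the fit. Fits with 1 library left out were run over all 3 groups, so they are set against the fit of all 6 libraries. In that fit 14 members passed higher, against 5.57% of all genes, with Cd63, Grn, Lipa, Laptm5 and Gusb among them. The median log2 fold change over the members was 0.80 there and 0.84 and 0.71 without control 1 and control 2. It was 1.02 without light 1 and 0.36 without light 2. Where a library was left out, the single library left in its group was assumed to vary like the other groups. DESeq2 passed 17 members higher after light, the 7 included, and 1161 genes in all.

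**Figure D1:**
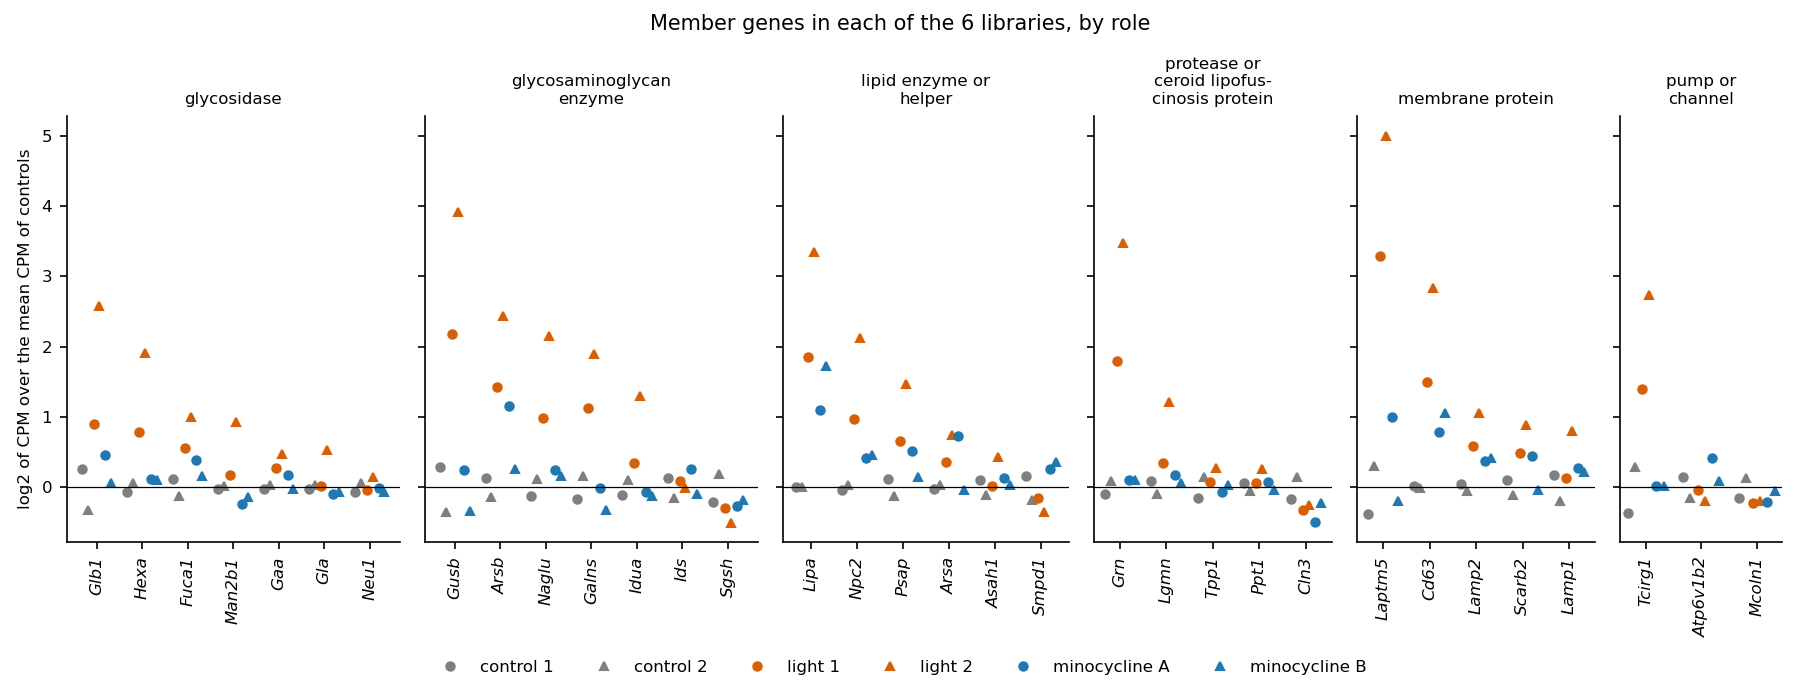
Each point is 1 library and gives the log2 of a gene's CPM over the mean CPM of the 2 controls, for 33 members grouped by role, with controls in grey, light-exposed retina in orange and minocycline in blue. Light 2 (orange triangles) is the highest point for most genes with a difference, while Neu1, Ids, Tpp1, Ppt1 and Mcoln1 stay close to the control mean in all libraries.

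Among the glycosidases, which clip sugars from glycoproteins and glycolipids, Fuca1 was the 1 member of 7 that rose. Counts by role stand beside the 7.52% of all tested genes that passed higher. Fuca1, the fucosidase, on chr4:135920735-135940311 of GRCm38, read 30.2 and 25.7 CPM in controls, 41.2 and 55.9 CPM after light and 36.6 and 31.4 CPM with minocycline. Its log2 fold change after light was 0.80 ± 0.19 (SE, edgeR adjusted p = 0.024). The groups did not overlap, and both minocycline libraries lay between them.

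Hexa, the alpha subunit of beta-hexosaminidase, which degrades GM2 ganglioside, read 36.8 and 40.1 CPM in controls, 66.2 and 145 CPM after light and 41.5 and 41.1 CPM with minocycline. Glb1, the beta-galactosidase, read 4.34 and 2.89 CPM in controls, 6.72 and 21.6 CPM after light and 4.96 and 3.76 CPM with minocycline. For both genes the controls and the minocycline libraries were low and close to each other, and light 2 stood far above light 1. Their log2 differences after light, 1.46 ± 0.41 and 1.98 ± 0.61 (SE), did not pass (edgeR adjusted p = 0.0997 and 0.101). Of the exonic bases of Hexa, 12.8% lie opposite Tmem202, 5.49% of those of Glb1 are shared with Tmppe on the same strand, and whether counting used the strand is not stated.

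Man2b1, an alpha-mannosidase, read 61.6 and 63.4 CPM in controls, 70.6 and 119 CPM after light and 52.9 and 56.7 CPM with minocycline. Its minocycline libraries lay below both controls. Gaa, which degrades glycogen, read 80.0 and 83.5 CPM in controls, 98.5 and 113 CPM after light and 91.7 and 80.5 CPM with minocycline. The difference after light was 0.38 ± 0.15 on the log2 scale (SE, edgeR adjusted p = 0.114). Gla, the X-linked alpha-galactosidase, read 37.2 and 38.5 CPM in controls, 38.1 and 54.7 CPM after light and 35.4 and 36.1 CPM with minocycline. Its minocycline libraries were the lowest, and controls and light-exposed libraries overlapped. Neu1, the sialidase, ranged from 57.1 to 66.1 CPM over the 6 libraries, and its groups overlapped after light.

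The enzymes of glycosaminoglycan breakdown held 3 of the 7 members that rose, and 5 of these 7 enzymes had both light-exposed libraries above both controls, as had 30.6% of all tested genes. Arsb removes sulfate from dermatan and chondroitin sulfate and lies on chr13:93771630-93943016. It read 13.6 and 11.3 CPM in controls, 33.4 and 67.5 CPM after light and 27.8 and 14.9 CPM with minocycline. Its log2 fold change after light was 2.02 ± 0.35 (SE, edgeR adjusted p = 0.0236), and minocycline A stayed above both controls by more than minocycline B did. A lincRNA, Gm26527, lies opposite 32.3% of its exonic bases.

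Galns, a sulfatase of keratan sulfate and chondroitin sulfate on chr8:122578242-122611463, read 6.68 and 8.38 CPM in controls, 16.4 and 28.1 CPM after light and 7.44 and 6.04 CPM with minocycline. It rose by 1.57 ± 0.28 on the log2 scale (SE, edgeR adjusted p = 0.0141), the lowest adjusted p of the 33 members. Naglu, which acts on heparan sulfate and lies on chr11:101070012-101077672, read 9.10 and 10.8 CPM in controls, 19.6 and 44.0 CPM after light and 11.8 and 11.1 CPM with minocycline. The log2 fold change was 1.69 ± 0.39 (SE, edgeR adjusted p = 0.0473). Both genes had minocycline libraries at or near the control level. Naglu did not pass with DESeq2 size factors in place of TMM or without the filter on low counts.

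Gusb, the beta-glucuronidase, read 7.61 and 4.86 CPM in controls, 28.3 and 94.4 CPM after light and 7.40 and 4.93 CPM with minocycline. The minocycline and control libraries were thus nearly the same, and light 1 was already above all of them. With light 2 at 3.34 times light 1, its log2 difference of 3.31 ± 0.85 did not pass (SE, edgeR adjusted p = 0.129). Idua, the alpha-iduronidase, read 6.90 and 7.96 CPM in controls, 9.40 and 18.3 CPM after light and 7.05 and 6.78 CPM with minocycline.

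The heparan sulfate sulfatase Sgsh and the iduronate sulfatase Ids were apart from these enzymes. Sgsh read 91.9 and 121 CPM in controls, 86.4 and 75.2 CPM after light and 88.9 and 93.7 CPM with minocycline. It had the lowest fitted difference after light of all members, -0.40 ± 0.17 on the log2 scale (SE, edgeR adjusted p = 0.147), and 21.6% of its exonic bases lie opposite Card14. Ids, which is X-linked, ranged from 106 to 140 CPM over the 6 libraries, and its groups overlapped.

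Among the lipid enzymes and their helpers, Psap rose. It encodes prosaposin, the precursor of the activator proteins of sphingolipid hydrolases, and lies on chr10:60277627-60302597. It read 466 and 395 CPM in controls, 681 and 1196 CPM after light and 616 and 474 CPM with minocycline. Its log2 fold change after light was 1.13 ± 0.26 (SE, edgeR adjusted p = 0.0278). Per kilobase of exon, Psap had the highest level of the 34 members in every group, with group means of 157 RPKM in controls, 342 RPKM after light and 199 RPKM with minocycline.

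Lipa, the acid lipase that frees cholesterol and fatty acids, read 6.54 and 6.55 CPM in controls, 23.7 and 66.5 CPM after light and 14.0 and 21.7 CPM with minocycline. Controls were lowest, light-exposed libraries highest, and the 2 minocycline libraries lay between them without overlap. The log2 difference after light, 2.79 ± 0.61, did not pass (SE, edgeR adjusted p = 0.0749). Npc2, which hands cholesterol on inside the lysosome, showed the same order, with 30.4 and 32.0 CPM in controls, 61.1 and 136 CPM after light and 41.8 and 42.8 CPM with minocycline.

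Arsa, the sulfatase of sulfatide, read 9.31 and 9.72 CPM in controls, 12.2 and 16.0 CPM after light and 15.8 and 9.27 CPM with minocycline. C230037L18Rik, annotated as antisense, lies opposite 18.75% of its exonic bases. Asah1, the acid ceramidase, ranged from 51.3 to 74.7 CPM over all libraries, and its groups overlapped. Smpd1, the acid sphingomyelinase, read 89.4 and 70.3 CPM in controls, 72.0 and 62.8 CPM after light and 95.5 and 102 CPM with minocycline. It was the 1 member with a higher level in minocycline than in light-exposed retina at an unadjusted p under 0.05.

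Among the proteases and ceroid lipofuscinosis proteins none passed, and Grn stood apart from the others. Grn, which encodes progranulin, a secreted protein processed to granulins in lysosomes, read 29.7 and 33.7 CPM in controls, 110 and 352 CPM after light and 33.99 and 33.96 CPM with minocycline. The control and minocycline libraries lay within a few CPM of each other, and light 2 held 3.2 times the level of light 1. The log2 difference after light of 2.87 ± 0.74 did not pass (SE, edgeR adjusted p = 0.13). Lgmn, an asparaginyl endopeptidase, read 213 and 186 CPM in controls, 253 and 462 CPM after light and 226 and 208 CPM with minocycline.

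Tpp1, Ppt1 and Cln3 are mutated in neuronal ceroid lipofuscinoses, storage diseases with loss of vision. Tpp1, a tripeptidyl peptidase, read 164 and 201 CPM in controls, 192 and 219 CPM after light and 173 and 186 CPM with minocycline. Its controls spanned the minocycline libraries, which lay below both light-exposed ones. Ppt1, a thioesterase, read 136 and 126 CPM in controls, 137 and 157 CPM after light and 138 and 128 CPM with minocycline. Cln3, a membrane protein of lysosomes, read 51.3 and 63.7 CPM in controls, 46.0 and 48.0 CPM after light and 40.7 and 49.0 CPM with minocycline. Controls of Cln3 were the highest libraries, by a margin that did not pass in any of the 3 comparisons.

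Among the membrane proteins, Lamp2 and Scarb2 rose. Lamp2, a heavily glycosylated protein of the limiting membrane, lies on chrX:38401357-38456454. It read 87.4 and 81.9 CPM in controls, 128 and 176 CPM after light and 109 and 112 CPM with minocycline, so that the 3 groups did not overlap. The log2 fold change after light was 0.85 ± 0.17 (SE, edgeR adjusted p = 0.0181). Scarb2, the receptor that carries glucocerebrosidase to lysosomes, lies on chr5:92441314-92506833. It read 52.5 and 45.3 CPM in controls, 68.5 and 90.02 CPM after light and 66.5 and 47.5 CPM with minocycline. It rose by 0.70 ± 0.17 on the log2 scale (SE, edgeR adjusted p = 0.0275), did not pass with all 6 libraries in 1 fit, and minocycline A lay near light 1 while minocycline B lay among the controls.

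Laptm5, a membrane protein of lysosomes in blood-derived cells, had the largest difference after light. It read 2.13 and 3.45 CPM in controls, 27.4 and 89.6 CPM after light and 5.57 and 2.44 CPM with minocycline. Minocycline B lay between the controls and minocycline A above them, and the light-exposed libraries differed by 3.27 times. The log2 difference after light was 4.39 ± 0.90 (SE, edgeR adjusted p = 0.0924). Cd63, a tetraspanin of late endosomes, read 12.2 and 12.04 CPM in controls, 34.4 and 86.5 CPM after light and 20.9 and 25.3 CPM with minocycline. As with Lipa, the 3 groups did not overlap. Of the 50-base words in its transcripts, 11.0% also occur in other genes, Cd63-ps among them. Lamp1, the companion of Lamp2, read 244 and 187 CPM in controls, 237 and 376 CPM after light and 260 and 251 CPM with minocycline. Both minocycline libraries lay above both controls, and light 1 lay between the controls.

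Of the pump and channel genes, none rose. Tcirg1, a subunit of the proton pump that is abundant in osteoclasts, read 6.82 and 10.7 CPM in controls, 23.1 and 58.6 CPM after light and 8.88 and 8.90 CPM with minocycline. The log2 difference after light was 2.23 ± 0.57 (SE, edgeR adjusted p = 0.0956). Atp6v0d2, another pump subunit, was near the limit of detection. It had 0 counts in the controls and with minocycline, which allows up to 3 counts per library, and 5 and 16 counts in light 1 and light 2, at least 2.48-fold higher after light than in controls taken at that limit. It was left out of the test by the filter on low counts, and it passed as higher after light without that filter. Atp6v1b2, the pump subunit of neurons and most other cells, read 343 and 279 CPM in controls, 303 and 272 CPM after light and 413 and 332 CPM with minocycline. Mcoln1, a cation channel that releases calcium from lysosomes, read 59.9 and 72.8 CPM in controls, 56.5 and 58.1 CPM after light and 57.5 and 63.9 CPM with minocycline.

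**Figure D2:**
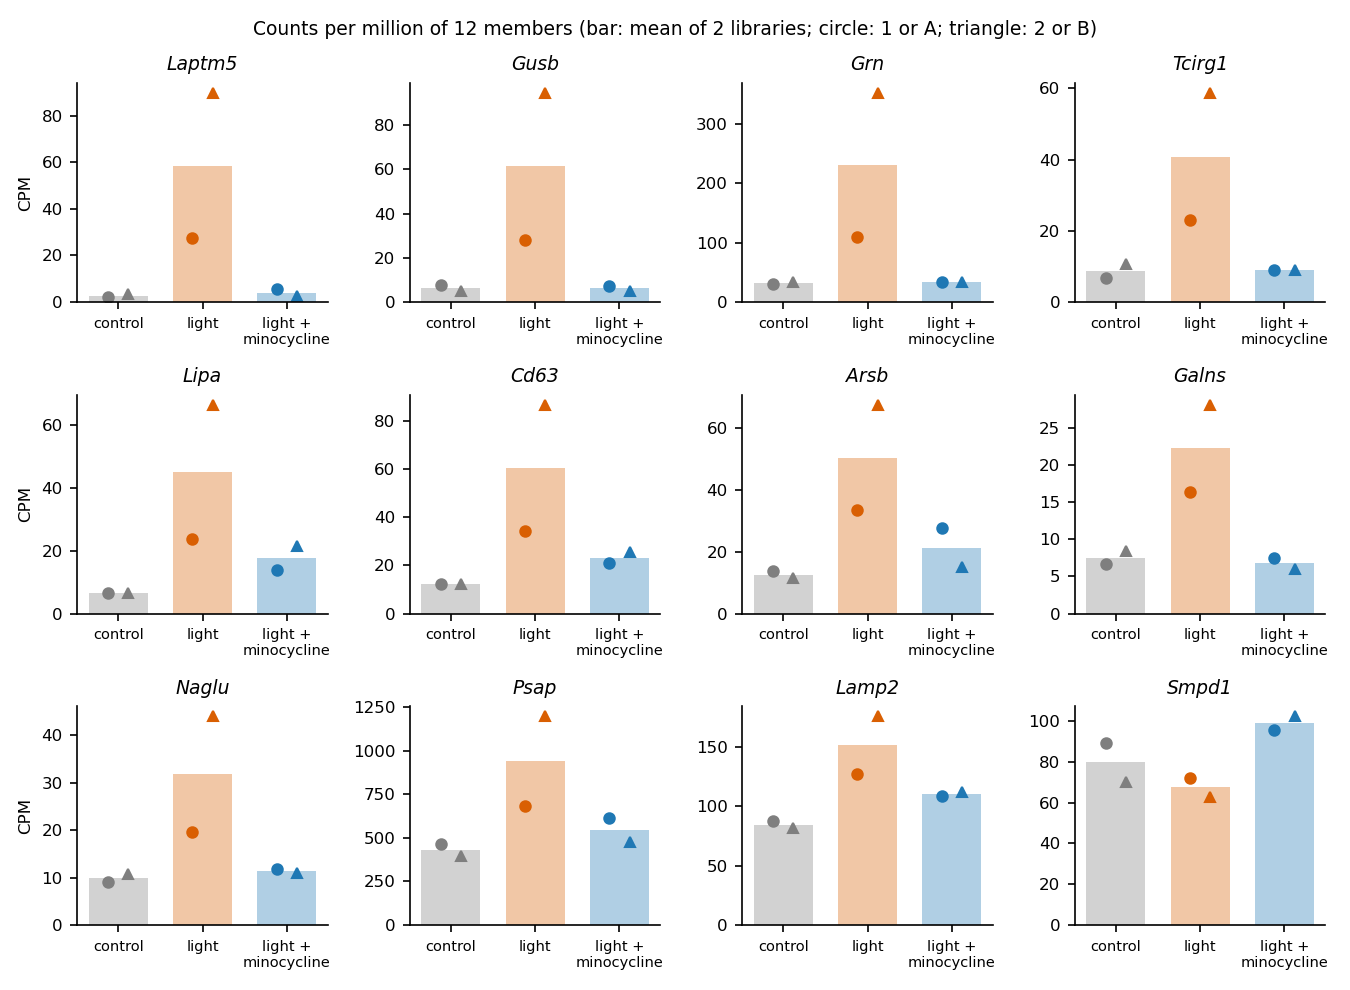
CPM of 12 members by group, with a bar for the mean of 2 libraries and a point for each library on a linear axis from 0 that differs between panels. In Laptm5, Gusb, Grn, Tcirg1 and Galns the minocycline points sit at or near the control points, in Lipa and Cd63 between the control and the light-exposed points, and in Smpd1 above both.

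The second comparison asked how minocycline altered these genes in light-exposed retina. Levels with minocycline were lower for most members that were high after light, and no member passed the test. Passing lower were 0 of 33 members, against 0.0407% of 14750 tested genes, that is 6 genes in all. At an unadjusted p under 0.05, 17 members were lower, against 12.1% of all genes, and DESeq2 passed 13 members and 748 genes in all as lower. Of the Müller glia markers, 5 of 7 had both minocycline libraries below both light-exposed ones, and 14 of 15 microglia and macrophage markers did. The 8 rod markers went the other way, with both minocycline libraries above both light-exposed ones for all 8, a median log2 difference of 0.83, and 7 higher at an unadjusted p under 0.05 while 0 passed. The part of these markers in the members' differences was not tested. Both minocycline libraries lay below both light-exposed libraries for 22 of the 33 tested members, against 28.7% of all tested genes. The reverse held for 3 members, Sgsh, Smpd1 and Atp6v1b2, against 26.1% of all genes, and 1 member, Smpd1, was higher at an unadjusted p under 0.05, against 9.04%.

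The largest differences with minocycline were those of Laptm5, -3.84 ± 0.71 on the log2 scale (SE, edgeR adjusted p = 0.0826), Gusb, -3.29 ± 0.63 (edgeR adjusted p = 0.0848), and Grn, -2.75 ± 0.56 (edgeR adjusted p = 0.0905). Tcirg1 followed with -2.19 ± 0.45 (SE, edgeR adjusted p = 0.0901). Galns, the member with the lowest adjusted p in this comparison, differed by -1.71 ± 0.29 (SE, edgeR adjusted p = 0.0698). Smpd1 stood on the other side, with 0.57 ± 0.14 (SE, edgeR adjusted p = 0.0901). With all 6 libraries in 1 fit, 19 members were lower at an unadjusted p under 0.05, against 12.6% of all genes. In that fit 2 passed lower, Tcirg1 and Galns, against 2.4% of all genes. The median log2 difference over the members was -0.52 there. When 1 library was left out of that fit, the median was -0.90 without light 1 and -0.27 without light 2. It was -0.71 without minocycline A and -0.54 without minocycline B. This comparison shares its light-exposed libraries with the first one, so the values of both depend on the same pair of libraries.

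The third comparison set minocycline-treated, light-exposed retina against untreated controls. Lipa and Cd63 stood out by size and stayed above both controls in both libraries, and no member passed. Passing higher were 0 of 33 members, against 0.162% of 14181 tested genes. At an unadjusted p under 0.05, 5 members were higher, against 5.39% of all genes, namely Lipa, Cd63, Arsb, Npc2 and Lamp2, and DESeq2 passed Lipa and Cd63, with 163 genes in all. With all 6 libraries in 1 fit, 2 members were higher at an unadjusted p under 0.05, against 4.58% of all genes. The median log2 difference over the members was 0.10 in that fit. When 1 library was left out of it, the median was 0.21 without control 1 and 0.11 without control 2. It was 0.06 without minocycline A and 0.21 without minocycline B. Both minocycline libraries lay above both controls for 12 members, against 15.9% of all genes, and below both for 3 members, Cln3, Man2b1 and Gla, against 24.0%.

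Lipa differed from control by 1.49 ± 0.27 on the log2 scale (SE, edgeR adjusted p = 0.104) and Cd63 by 0.97 ± 0.20 (SE, edgeR adjusted p = 0.135). Both genes were higher in minocycline B than in minocycline A. Markers of pigment cells differed in the same order between these libraries, with all 5 markers above both controls, and their part in the levels of Lipa and Cd63 was not tested. Arsb differed by 0.82 ± 0.30, Npc2 by 0.48 ± 0.15 and Lamp2 by 0.43 ± 0.15 (SE, edgeR adjusted p = 0.605, 0.462 and 0.532). Arsb, Psap, Scarb2 and Arsa were higher in minocycline A than in minocycline B, as were the microglia and macrophage markers, whose part was likewise not tested. Other members had the same order, such as Ids, Gaa and Atp6v1b2, while Npc2, Lamp2, Smpd1 and Mcoln1 had the reverse.

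Across the 13 members with a log2 fold change of at least 1 after light, the levels in the 4 exposed libraries can be set on the scale of the mean control. Their median ratio to that mean was 2.64 in light 1, 5.98 in light 2, 1.34 in minocycline A and 1.07 in minocycline B. Lipa and Cd63 were the 2 of the 13 that were at least 1.5 times the control mean in both minocycline libraries. The 13 were chosen by their difference between light-exposed and control retina, so all of these ratios, which share the control mean, are a description.

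**Figure D3:**
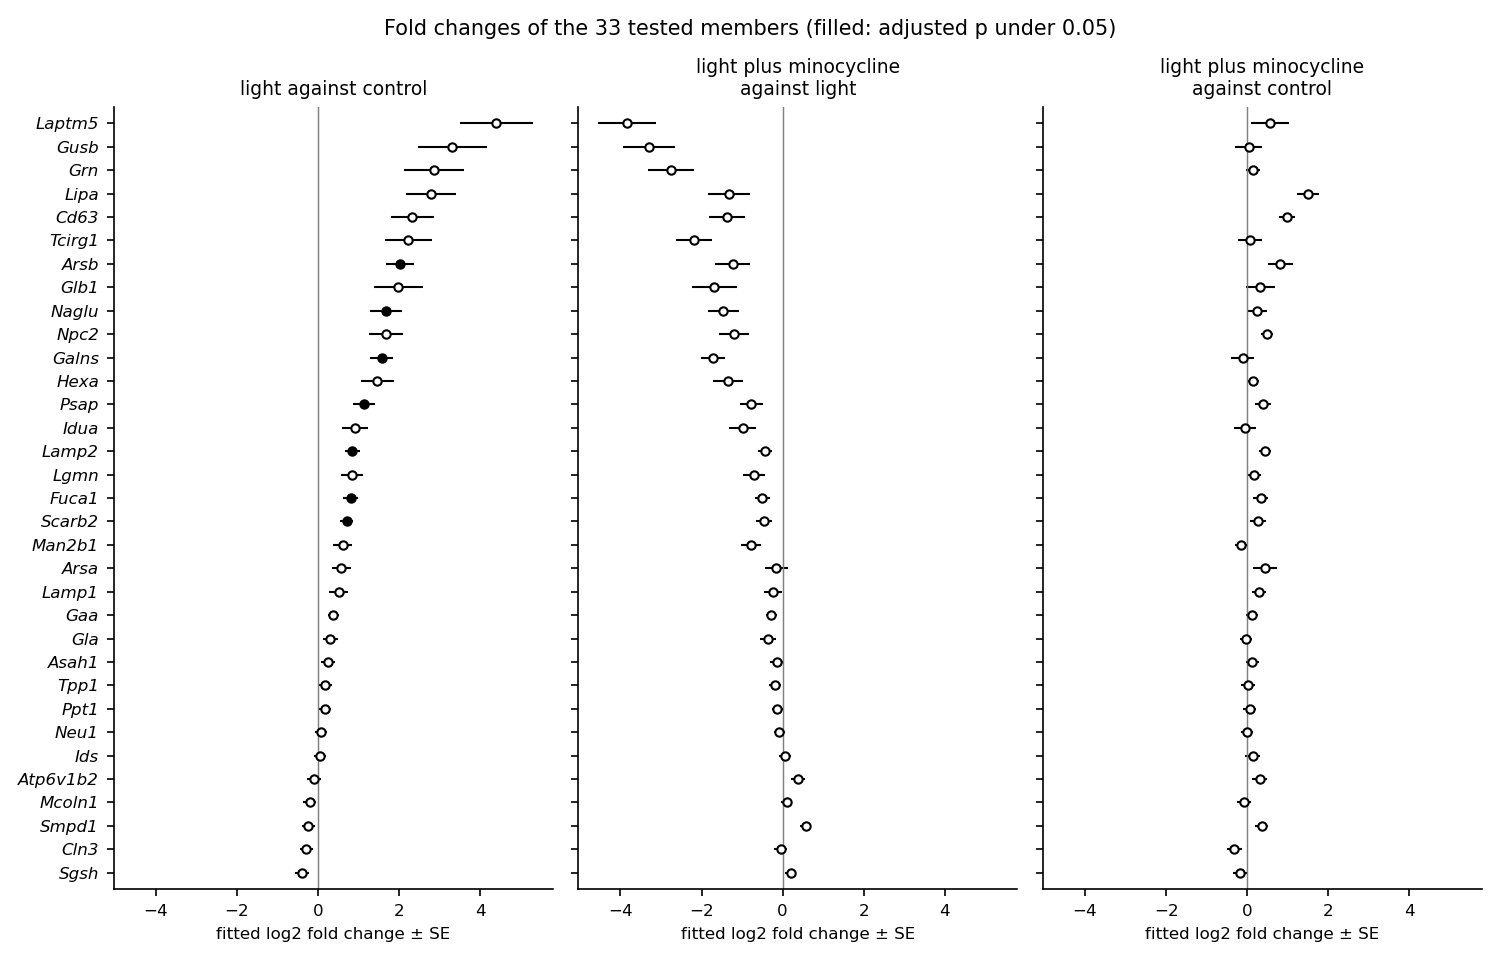
Fitted log2 fold changes with standard errors for the 33 tested members in the 3 comparisons, sorted by the first, with filled points at an adjusted p under 0.05. The 7 filled points all stand in light against control, at 0.70 to 2.02, where the larger fold changes above them have the wider errors, and in light plus minocycline against control Lipa, Cd63 and Arsb stand farthest from 0.

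Levels were compared between genes per kilobase of exon. In control retina the highest members after Psap were Lgmn, at a mean of 85.9 RPKM, Lamp1, at 80.5 RPKM, and Atp6v1b2, at 58.6 RPKM. Laptm5, at 0.737 RPKM, Lipa, at 0.965 RPKM, and Glb1, at 1.20 RPKM, were the lowest above Atp6v0d2. After light, Grn moved from rank 16 to rank 4 of the 34 members, at 66.5 RPKM, Hexa from rank 10 to rank 6 and Laptm5 from rank 33 to rank 18. These ranks use the mean of both light-exposed libraries. By library, Grn stood at rank 8 in light 1 and 4 in light 2, Hexa at 7 and 5, and Laptm5 at 25 and 11. With minocycline these genes stood at ranks 17, 9 and 33.

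For 12 members the fitted difference after light was under 0.5 in size on the log2 scale, between -0.40 and 0.38. They were Neu1, Ids, Ppt1, Tpp1, Asah1, Gla, Gaa, Smpd1, Sgsh, Cln3, Mcoln1 and Atp6v1b2, which come from every role but the membrane proteins. Their lowest adjusted p in edgeR was 0.114. A p above the threshold does not show that these genes had equal levels in the groups.

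Other genes of the organelle were examined from lists that the members do not share. In 46 further lysosomal genes, 9 of 43 tested rose after light and 0 fell. Over all tested genes 7.52% rose and 3.8% fell. At an unadjusted p under 0.05, 3 of the 43 were lower, against 12.4% of all tested genes, and DESeq2 passed 1 lower, against 5.25%. The list had a median log2 fold change of 0.40 against 0.80 over the members and 0.0025 over all tested genes. The median over the members was 0.36 without light 2 and 1.02 without light 1. The 5 with the largest changes among those that passed were Acp5, Litaf, Slc29a3, Dnase2a and Manba. Acp5, the tartrate-resistant phosphatase of macrophages and osteoclasts, had 1 count in each control, 14 and 55 counts after light and 4 and 6 counts with minocycline (edgeR adjusted p = 0.0161 for light against control). With so few control counts, it entered that test through its light-exposed libraries alone. The filter on low counts left it out of light plus minocycline against control. Litaf, a protein of late endosomal membranes, read 3.48 and 3.03 CPM in controls, 12.2 and 34.1 CPM after light and 3.83 and 4.87 CPM with minocycline. Its fold change was 2.83 ± 0.55 on the log2 scale (SE, edgeR adjusted p = 0.0351), and it did not pass without the filter on low counts.

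The nucleoside transporter Slc29a3 rose by 1.73 ± 0.35 (SE, log2, edgeR adjusted p = 0.0193). The acid nuclease Dnase2a and the beta-mannosidase Manba both rose by 1.41 on the log2 scale, with SE of 0.35 and 0.36 (edgeR adjusted p = 0.0341 and 0.0331), and Manba did not pass with all 6 libraries in 1 fit. In the second comparison, 0 of 43 of these genes passed in edgeR and 15 were lower at an unadjusted p under 0.05, against 12.1% of all genes. DESeq2 passed 6 lower, against 5.01% of all genes.

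The cathepsins, the main proteases of lysosomes, had a higher median log2 fold change after light, 2.34 over 12 tested genes, of which 4 rose and 0 fell, none was lower at an unadjusted p under 0.05, and DESeq2 passed 10 higher and 0 lower. For the 18 further genes of the proton pump the median was 0.11, and 1 of 16 tested, Atp6v0e, rose. Tcirg1 and Atp6v0e were thus the tested pump genes with a fitted fold change over 0.5 on the log2 scale, among 18 tested. The 15 microglia and macrophage markers had a median of 3.93, and 6 of them passed. The edgeR counts with all 4 libraries stand beside 7.52% of all tested genes that passed higher and 3.8% that passed lower. At an unadjusted p under 0.05, 12.4% were lower. The DESeq2 counts stand beside 7.68% and 5.25% of the genes it gave an adjusted p. No fit with 1 of these 4 libraries left out was run on these 2 groups alone. How far single libraries carry the counts of these lists is therefore not shown. The medians of these lists are given as descriptions and no test was made between them.

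**Figure D4:**
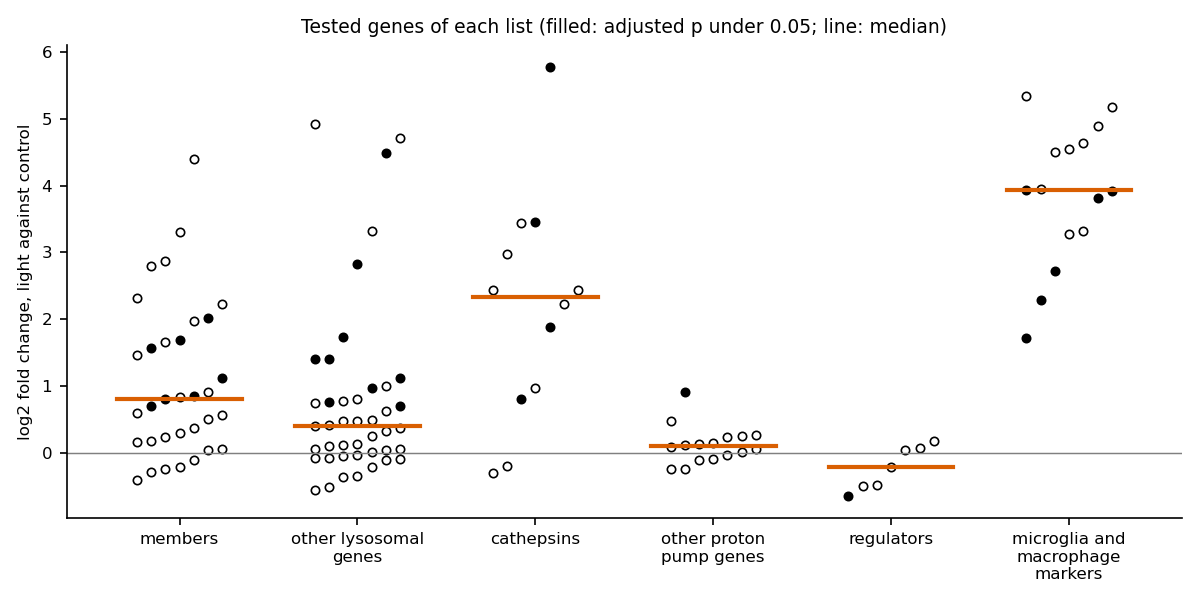
Log2 fold change in light against control for each tested gene of the members, 4 further lists and the microglia and macrophage markers, filled at an adjusted p under 0.05, with the list's median as a line. The members spread from -0.40 to 4.39 around 0.80, the cathepsins and the markers lie higher, the proton pump genes have a median of 0.11 with Atp6v0e highest, and the regulators run from -0.64 for Flcn to 0.18.

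Of 7 tested regulators of lysosomal genes, 0 passed higher after light, 0 were higher at an unadjusted p under 0.05 and DESeq2 passed 0 higher. Over all tested genes these shares were 7.52%, 16.5% and 7.68%. Without the filter on low counts 1 passed higher, against 8.01% of all genes. Passing lower was 1 of the 7, against 3.8% of all tested genes. At an unadjusted p under 0.05, 3 were lower, against 12.4%. Tfeb, which binds CACGTG elements of lysosomal promoters, read 5.47 and 8.59 CPM in controls, 7.48 and 8.40 CPM after light and 8.18 and 9.54 CPM with minocycline, and its groups overlapped after light. Tfe3, its relative, ranged from 36.9 to 44.3 CPM. Mitf, the third relative and a regulator of pigment cells, read 11.6 and 12.1 CPM in controls, 9.23 and 11.2 CPM after light and 14.9 and 28.7 CPM with minocycline. Its levels with minocycline followed the order of the pigment cell markers, whose part was not tested. Tfec had 0 counts in the controls and at most 1.01 CPM elsewhere.

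Flcn, folliculin, which takes part in nutrient signalling at the lysosome, fell in light-exposed retina, with 309 and 359 CPM in controls, 223 and 203 CPM after light and 227 and 291 CPM with minocycline. Its log2 fold change was -0.64 ± 0.16 (SE, edgeR adjusted p = 0.0299). It did not pass with total library size or with all 6 libraries in 1 fit. Nor did it pass when 1 control or light-exposed library was left out of that 6-library fit. Mtor, the kinase of that pathway, and Zkscan3, a repressor of lysosomal genes, were lower after light by -0.48 ± 0.16 and -0.49 ± 0.16 without passing (SE, log2, edgeR adjusted p = 0.0736 and 0.0755), and both passed without the filter on low counts. Rptor, the partner of Mtor, ranged from 81.7 to 107 CPM in the 6 libraries.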

How the data were processed

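The authors prepared stranded mRNA libraries, used the RNA Express workflow, in which STAR maps reads to mm10 and to its genes, and deposited counts per gene. The study calls the deposited values normalized by DESeq2. They were whole numbers whose library sizes after TMM adjustment still ranged from 14067618 to 22975405, so they were treated here as counts without normalization, and every CPM and test rests on that reading. The versions of the workflow, STAR and DESeq2, the gene annotation and the use of the strand in counting are not given in the sources used here. The members and the gene lists were chosen with earlier results of these data known.

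Pairs of groups were compared over all genes by the robust quasi-likelihood F test of edgeR 4.0.16 (R 4.3.3) after filterByExpr and TMM, with Benjamini-Hochberg adjustment. A gene passed at an adjusted p under 0.05 and was called if its log2 fold change was also 2 or more in size. All 34 members are named, with values in every library where groups did not overlap in a comparison or the test was passed. Of other lysosomal genes the 5 with the largest change among those passing are named. Alternatives were DESeq2 1.42.0 without shrinkage, its size factors, total library size, no filter and no robust estimation. Others were all 6 libraries in 1 fit, the replicate block and a log2 cutoff of 1. Each library of the compared groups was also left out in turn from the fit of all 6 libraries. The tests were tried on simulated data.

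RPKM used the exon union of GENCODE M21 on GRCm38, which also gave coordinates and overlaps. With 3 counts per library as the limit of detection, a gene without counts could reach 0.131 to 0.213 CPM. Such limits cover counting error only, since copies made by PCR are not independent molecules. Groups of 2 libraries allow no test for outlying samples, and p-values measure the spread between these libraries. Promoters of Atp6v0d2, Asah1, Atp6v1b2 and Galns were not analysed here.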

Additional observations from a re-analysis of the deposited data

How the results depend on the processing

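In light against control, the number of members passing higher was 7, against 7.52% of all genes. It became 17 with total library size, against 13.5%, 17 with DESeq2, against 7.68%, 16 without robust estimation, against 7.53%, 14 with all 6 libraries in 1 fit, against 5.57%, and 4 with a log2 fold change of at least 1 also required. It was 6 with DESeq2 size factors and 8 without the filter, against 6.85% and 8.01%, and ranged from 0 to 19 with each library left out, where 0.0131% to 7.6% of all genes passed. Members called at a log2 fold change of at least 2 numbered 1, and 7 with total library size, DESeq2, no robust estimation or all 6 libraries, 5 with the replicate block, 2 without the filter and 0 to 10 with each library left out. The share of all genes called is given only for the first of these counts, where it was 2.89%. For the other settings, and for the 4 members at a log2 fold change of at least 1, no such share stands beside the count. Whether members were called more often there than genes in general is therefore not shown. With total library size the median over all genes went from 0.0025 to 0.24 on the log2 scale and that over the members from 0.80 to 1.04. With the replicate block 18 members passed, against 11.6% of all genes. Control and light-exposed libraries with the same number did not deviate together (r = -0.012 across 14713 genes), so they share only a number. No paired analysis was possible because of the identical headers for either comparison with minocycline.

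In light plus minocycline against light, 0 members passed lower, against 0.0407% of all genes. Passing lower were 2 without the filter, against 2.63%, 13 with DESeq2, against 5.01%, and 2 with all 6 libraries, against 2.4%. Passing higher were 0, and 1 without the filter and with DESeq2, against 1.34% and 3.16%. In light plus minocycline against control, 0 passed higher, and 2 without the filter and with DESeq2, against 1.01% and 1.06%. The fold changes of members with an unadjusted p under 0.05, and those after light of Acp5, Litaf, Slc29a3, Dnase2a, Manba, Atp6v0e, Flcn, Mtor and Zkscan3, came to 54, of which 0 turned sign over 571 alternatives. Of 54 member fold changes with a larger p, 23 turned sign under at least 1 alternative. The cause of these changes was not tested. Atp6v0d2, at 0 counts in 4 libraries, was too low at this depth for the filtered test.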
